A study of Mus musculus with 6 samples.

Results

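The Krüppel-like factors (KLF) and early growth response factors (EGR) are families of zinc finger transcription factors, and 10 of their genes are described here in mouse macrophages grown with CSF2 or with CSF1. They are Klf2, Klf3, Klf4, Klf6, Klf7, Klf9, Klf10, Egr1, Egr2 and Egr3, found by their platform gene symbol among 19938 genes tested. Each was read by 1 probe set that carried no other gene's name, so 10 of 28941 probe sets are concerned. M(CSF2) cells were bone marrow cells of C57BL/6 mice cultured for 7 days with CSF2 (GM-CSF). M(CSF1) cells were bone marrow cells of C57BL/6 mice cultured for 7 days with CSF1 (M-CSF). Each group holds 3 Affymetrix Mouse Gene 1.0 ST arrays of total RNA from sorted cells, which the labels call biological replicates. No source used here says whether replicates came from separate mice, or gives the age and sex of the mice. The p-values therefore rest on the spread among these arrays, some of which may be technical.

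KLF factors bind GC-rich and CACCC-type DNA through a run of zinc fingers at their carboxy end, and members of the family either activate or repress their targets. EGR factors bind a related GC-rich site, are induced within minutes by growth factor signals through the ERK cascade and serum response factor (SRF), and are held back by the NAB corepressors, which EGR factors themselves induce. In myeloid cells Klf4 is known for monocyte development, Klf2 for restraining inflammatory activation, Klf6 for promoting it, and Egr1 and Egr2 for steering precursors toward the macrophage fate.

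Stretches of DNA near the starts of Egr2, Klf9 and Klf3 are shown because these genes differed most between the groups. RefSeq promoter windows of assembly GRCm38.p6 matched 7 of the 10 genes, in 11 windows, of which 5 belong to Egr2, and 250 bases before each start were searched on both strands. The motifs were the CArG box that SRF binds, the EGR site GCGNGGGCG, the GC box GGGCGG, the CACCC box, the AP-1 site TGANTCA and the STAT-type site TTCNNNGAA. For Egr2, a CArG box stood in 4 of its 5 windows, at 2 distinct places, each 72 bases before an annotated start. Both are printed as 30 bases of the plus strand with the CArG box in capitals, from chr10:67537484-67537513 and chr10:67537787-67537816.
Egr2, first box: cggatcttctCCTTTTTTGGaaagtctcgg
Egr2, second box: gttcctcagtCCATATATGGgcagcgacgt
For Klf9, the 250 bases before the start (chr19:23140976-23141225, plus strand) held 1 TGANTCA match, 89 bases before the start, and 1 TTCNNNGAA match, 33 bases before it. Both are in capitals. The stretch also held 1 CACCC box, 84 bases before the start, which shares letters with the TGANTCA match and is not marked separately.
Klf9: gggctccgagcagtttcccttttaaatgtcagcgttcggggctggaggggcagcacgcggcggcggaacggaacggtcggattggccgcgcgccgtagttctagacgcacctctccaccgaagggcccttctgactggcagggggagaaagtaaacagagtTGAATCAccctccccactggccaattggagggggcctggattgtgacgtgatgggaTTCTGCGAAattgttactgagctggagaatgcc
For Klf3, the 250 bases before the start (chr5:64803271-64803520, plus strand) held 3 GCGNGGGCG matches, shown in capitals. The first 2 overlap, and all 3 share letters with GC boxes, of which there were 6. The stretch also held 5 CACCC boxes, which are not marked.
Klf3: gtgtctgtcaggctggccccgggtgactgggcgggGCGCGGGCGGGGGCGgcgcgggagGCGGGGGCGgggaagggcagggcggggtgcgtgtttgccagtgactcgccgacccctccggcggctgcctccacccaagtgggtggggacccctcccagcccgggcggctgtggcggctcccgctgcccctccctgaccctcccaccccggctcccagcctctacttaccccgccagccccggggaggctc

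Over all 32851 windows of the same length, 1.47% held a CArG box, 4.7% the EGR site, 32.7% the GC box, 52% the CACCC box, 6.75% the TGANTCA site and 7.02% the TTCNNNGAA site. The EGR site stood before 3 of the 7 genes with a window. Besides Klf3 these were Klf2, with 1 match, and Klf4, with 2 on the opposite strand. A match describes these letters and is not evidence of binding.

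Of the 10 genes, 2 were higher in M(CSF2) and 4 lower. Egr2 and Klf9 rose, by 3.59 and 2.43 on the log2 scale, while Klf3, Klf7, Klf6 and Egr1 fell by 0.66 to 1.68. The calls, here and below, are at an adjusted p under 0.05 in limma with Benjamini-Hochberg adjustment over all genes. At that threshold 27.5% of all genes were called, 11.9% higher and 15.6% lower. Klf2, Klf4, Klf10 and Egr3 were not called. In 7 of the 10 genes the arrays of one group lay entirely above those of the other, which held for 38.9% of all genes. Both families were split in direction: among the 7 KLF genes 1 rose and 3 fell, and among the 3 EGR genes 1 rose and 1 fell. The median of the 10 differences was -0.02, against 0.04 over all genes, and the median size was 0.77, against 0.15. These sets are not alike. All 10 had a mean above the olfactory receptor level described below in at least 1 group, and many of all genes did not. The 10 were also chosen with earlier results of these data known. In bulk RNA, fewer cells expressing a gene and less RNA per cell cannot be told apart.

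**Figure D1:**
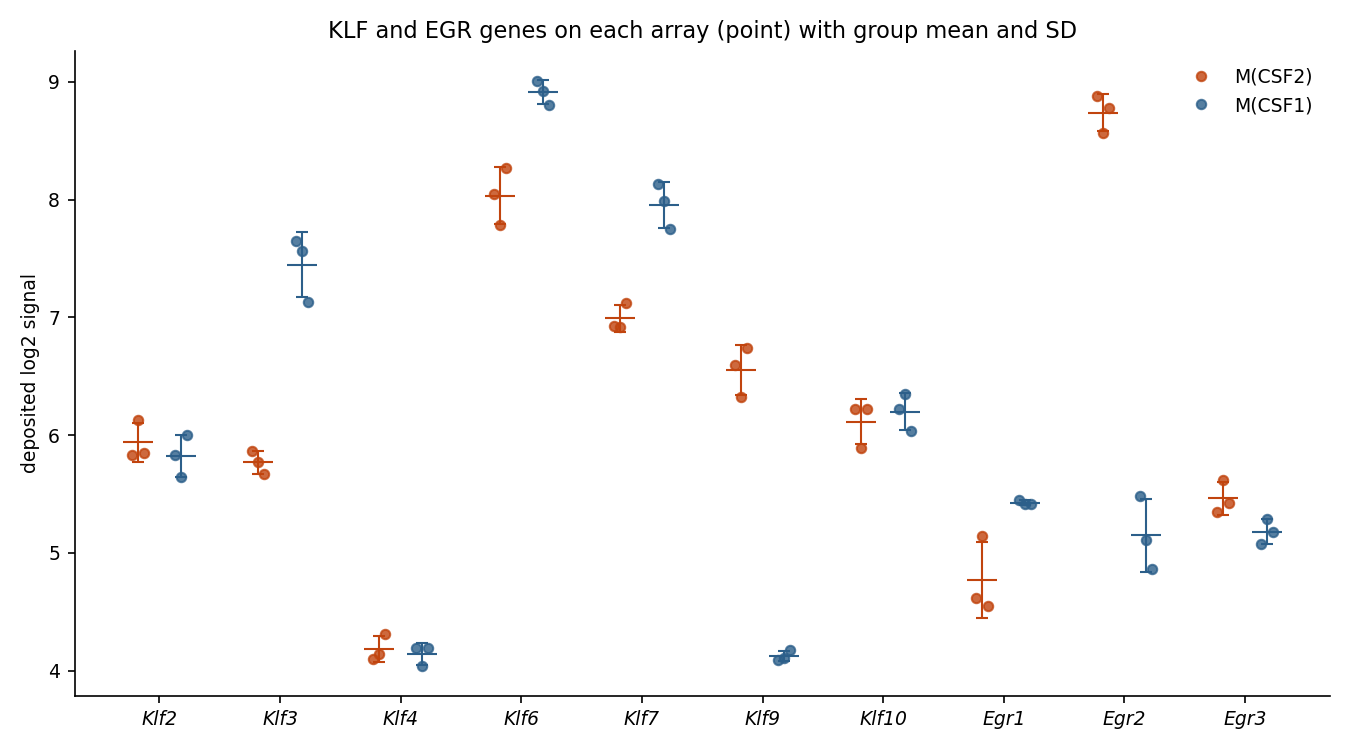
Deposited log2 signal (vertical axis) of each of the 10 genes on the M(CSF2) arrays (red, left of each pair) and the M(CSF1) arrays (blue). Points are arrays, dashes and bars are the group mean and SD (n = 3), and heights are not comparable between genes. Egr2 and Klf9 stand apart upward in M(CSF2), and Klf3, Klf6, Klf7 and Egr1 downward.

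Egr2, the EGR gene best known for hindbrain patterning and Schwann cell myelination, had the largest difference. Its log2 signal was 8.88, 8.57 and 8.78 on the M(CSF2) arrays, against 5.48, 5.10 and 4.86 on the M(CSF1) arrays. The lowest M(CSF2) array stood far above the highest M(CSF1) array, and both groups lay above the level of olfactory receptor genes, 3.36, which serves here as the level of genes a macrophage does not use. The difference was 3.59 (SE 0.16, limma adjusted p = 3.6e-06), a 12.1-fold higher signal with a 95% interval of 9.31 to 15.6. Only 0.672% of all genes had a larger difference in either direction.

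Egr1, the immediate early gene of the family, moved the other way. It had 4.62, 5.14 and 4.55 on the M(CSF2) arrays, against 5.45, 5.42 and 5.41 on the M(CSF1) arrays. The groups did not overlap, but M(CSF2) replicate 2 lay nearer to M(CSF1) than to its own group's other arrays in this gene. The difference of -0.66 (SE 0.15, adjusted p = 0.013) is a 1.58-fold lower signal with a 95% interval of 1.24 to 2.01. The call held in 2 of 6 leave-one-out fits, each without 1 array. It was lost at adjusted p = 0.072 without M(CSF2) replicate 1, 0.051 without M(CSF2) replicate 3, 0.065 without M(CSF1) replicate 1 and 0.062 without M(CSF1) replicate 2. With M(CSF2) replicate 2 left out it was -0.85 (adjusted p = 0.00048).

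Egr3, known from muscle spindles and from lymphocytes, had 5.35, 5.62 and 5.42 in M(CSF2), against 5.07, 5.29 and 5.17 in M(CSF1). The groups lay next to each other without overlap. The difference of 0.28 (95% interval 0.06 to 0.51, before adjustment) did not pass over all genes (adjusted p = 0.066). It passed after quantile normalization, at 0.34 and adjusted p = 0.037.

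The 95% intervals of the EGR differences, before adjustment, were 3.22 to 3.97 for Egr2, 0.06 to 0.51 for Egr3 and -1.01 to -0.31 for Egr1, and none of them overlaps another.

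Klf9, a factor induced by glucocorticoid and thyroid hormone in many tissues, had the second largest difference. It had 6.59, 6.33 and 6.74 in M(CSF2), against 4.09, 4.11 and 4.17 in M(CSF1). The M(CSF1) arrays lay close together and not far above the olfactory receptor level. The difference was 2.43 (SE 0.11, adjusted p = 3.6e-06), a 5.38-fold higher signal with a 95% interval of 4.52 to 6.42, and 1.66% of all genes differed more.

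Klf3, which represses through the corepressor CtBP, fell most. It had 5.87, 5.77 and 5.67 in M(CSF2), against 7.65, 7.56 and 7.13 in M(CSF1), with M(CSF1) replicate 3 the lowest of its group and still well above M(CSF2). The difference was -1.68 (SE 0.14, adjusted p = 7.2e-05), a 3.19-fold lower signal with a 95% interval of 2.55 to 4.00.

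Klf7, studied mainly in neurons and fat cells, had 6.93, 6.92 and 7.13 in M(CSF2), against 8.13, 7.99 and 7.75 in M(CSF1). Every M(CSF1) array was above every M(CSF2) array. It was 1.95-fold lower in M(CSF2) (95% interval 1.63 to 2.34), with a difference of -0.96 (SE 0.11) and adjusted p = 0.00046.

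Klf6 had 8.05, 7.79 and 8.27 in M(CSF2), against 9.01, 8.92 and 8.80 in M(CSF1), again without overlap. It was 1.84-fold lower (95% interval 1.50 to 2.26), at -0.88 (SE 0.13) and adjusted p = 0.0014.

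Klf2 and Klf4, the members with the best known roles in monocytes, did not pass the test. Klf2 had 5.83, 6.13 and 5.85 in M(CSF2), against 5.83, 5.64 and 6.00 in M(CSF1), and the groups overlapped. Its difference was 0.11, with a 95% interval of -0.16 to 0.39 (adjusted p = 0.54). Klf4 had 4.10, 4.14 and 4.31 in M(CSF2), against 4.20, 4.04 and 4.20 in M(CSF1), so it was dim in both groups and the ranges overlapped. Its difference was 0.04, with an interval of -0.16 to 0.24 (adjusted p = 0.78). Klf10, a gene induced early by TGF-beta, had 6.22, 5.89 and 6.22 in M(CSF2), against 6.22, 6.35 and 6.03 in M(CSF1). Its difference was -0.09 (interval -0.37 to 0.20, adjusted p = 0.66). The intervals of these 3 genes do not reach the size of the differences of Klf3, Klf9 or Egr2.

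No one pattern within groups held for all 10 genes. In Klf3, Klf6, Klf7, Egr2 and, by little, Egr1 the M(CSF1) signal fell from replicate 1 to 2 to 3, while in Klf9 it rose. How common such an order, or the farthest arrays below, is over all genes was not counted. In 7 of the 10, M(CSF2) replicate 2 was the array farthest from the M(CSF2) mean. It was above the mean for Klf2, Egr1 and Egr3, and below it for Klf6, Klf9, Klf10 and Egr2. Among the M(CSF1) arrays, replicate 3 was farthest in 5 of the 10. The largest such deviation was 0.37, for Egr1 in M(CSF2) replicate 2, small beside the differences of Egr2, Klf9 and Klf3.

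Of the 10 other KLF genes 1 was higher and 1 lower in M(CSF2), and the median difference was 0.07. Klf13, a factor of lymphocyte chemokine expression, was 0.33 higher (adjusted p = 0.035), a call that held in 1 of 6 leave-one-out fits and not after centring on array medians. Klf16 was 0.36 lower (adjusted p = 0.0055). Arrays of both groups lay at or below the olfactory receptor level for 4 of these 10. Of the 8 SP genes measured, close relatives of the KLF family, 0 were higher and 1 lower. That 1 was Sp3, at -0.38 (adjusted p = 0.044), whose call was lost in all 6 leave-one-out fits, and which gave -0.10 (adjusted p = 0.40) as the mean of its probe sets. Of the EGR relatives Egr4 and Wt1, 0 of 2 were called.

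**Figure D2:**
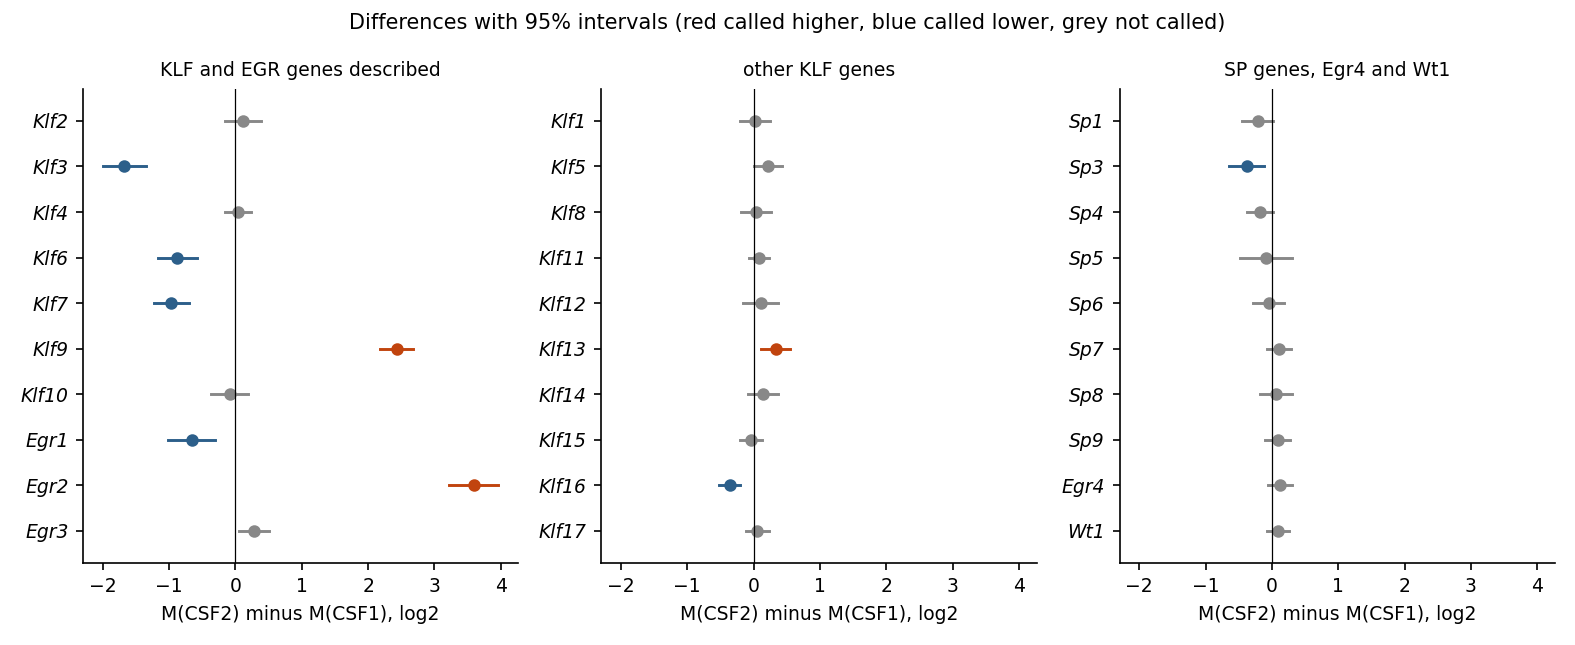
Log2 difference, M(CSF2) minus M(CSF1) (horizontal axis), with its 95% interval, by gene. Red was called higher, blue called lower and grey not called. The points of Egr2, Klf9, Klf3, Klf7, Klf6 and Egr1 lie outside the range of the 20 relatives in the middle and right panels, which runs from -0.38 (Sp3) to 0.33 (Klf13).

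Among the cofactors, the NAB corepressors of EGR factors moved in opposite directions. Nab2 had a mean of 9.23 ± 0.03 in M(CSF2) and 8.77 ± 0.05 in M(CSF1) (SD, n = 3 arrays each), a rise of 0.45 (limma adjusted p = 0.0014). Nab1 averaged 6.36 ± 0.13 in M(CSF2) and 7.34 ± 0.17 in M(CSF1), a difference of -0.98 (adjusted p = 0.00036). Of the 10 corepressors and coactivators that KLF factors recruit, 0 were higher and 4 lower (median -0.27), led by the acetyltransferase gene Kat2b at -1.61 (adjusted p = 1.9e-05).

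The genes that act upstream of EGR and KLF induction were lower or not called, with 1 exception. Of SRF and its partners, 0 of 6 were higher and 2 lower (median -0.17). These were the SRF coactivators Mrtfa (-0.75, adjusted p = 0.0032) and Mrtfb (-0.60, adjusted p = 0.011), the second called in 4 of 6 leave-one-out fits. Dropping M(CSF1) replicate 1 gave adjusted p = 0.058, and dropping M(CSF1) replicate 2 gave 0.056. Of the ERK cascade 5 of 11 genes were measured by a probe set of their own, 1 higher and 1 lower. The kinase gene Map2k1 rose by 0.50 (adjusted p = 0.0098), and Braf fell by 0.77 (adjusted p = 0.0038). In the route through MEK5, ERK5 and MEF2 factors, which is known to induce Klf2 and Klf4 in endothelium, 0 of 5 were higher and 2 lower (median -0.30). Mef2a fell by 1.41 (adjusted p = 1.8e-05) and Mef2c by 0.45 (adjusted p = 0.014). Mef2c was called in 4 of 6 leave-one-out fits. Its adjusted p was 0.067 when M(CSF2) replicate 1 was dropped and 0.061 when M(CSF2) replicate 2 was.

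Other immediate early genes, which like Egr1 answer stimulation and handling of cells, did not move as a block. Of 14, 5 were higher, 5 lower and 4 not called (median 0.05). Ier3, a survival gene, rose by 1.92 (adjusted p = 6.0e-06) and the stress factor Atf3 by 0.89 (adjusted p = 0.00017). Myc fell by 1.13 (adjusted p = 0.00025) and Jun by 0.86 (adjusted p = 0.00016). The lower count was 3 without M(CSF1) replicate 1 or without M(CSF1) replicate 2. Of 5 heat shock genes measured, 1 was higher (Hsph1, 0.93, adjusted p = 0.0010) and 1 lower (Hspa8, -0.36, adjusted p = 0.0046).

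Klf10 is a TGF-beta response gene and Klf9 a glucocorticoid response gene, so the genes of these routes were listed too. Of 8 TGF-beta and SMAD genes, 3 were higher and 3 lower (median -0.09). The inhibitory Smad7 rose by 0.83 (adjusted p = 0.00052), and the signal carrier Smad3 had a mean of 3.74 ± 0.23 in M(CSF2) and 6.64 ± 0.16 in M(CSF1) (SD, n = 3 arrays each), a difference of -2.90 (limma adjusted p = 4.0e-06). Of 6 glucocorticoid response genes, 3 were higher and 1 lower (median 0.36). The kinase gene Sgk1 rose by 2.24 (adjusted p = 8.0e-07), and Nr3c1, the glucocorticoid receptor gene, fell by 1.12 (adjusted p = 0.0066). Per1 and Tsc22d3 rose by 0.90 and 0.63. Fkbp5 (-0.09, adjusted p = 0.49) and Zbtb16 (0.10, adjusted p = 0.73) were not called.

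Genes known as targets from other cells went both ways. Of 4 measured targets of Klf2 or Klf4, 1 was higher and 1 lower (median 0.00). The sphingosine phosphate receptor S1pr1 rose by 1.14 (adjusted p = 0.00021), and thrombomodulin, Thbd, fell by 1.52 (adjusted p = 0.00064). Of 8 targets of EGR factors, 3 were higher and 3 lower (median 0.00). F3, the coagulation starter tissue factor, had a mean of 7.04 ± 0.42 in M(CSF2), while all M(CSF1) arrays lay at or below the olfactory receptor level, so it was at least 12.9-fold higher (limma adjusted p = 5.9e-06). Pdgfa, a growth factor gene, rose by 1.81 (adjusted p = 1.4e-06). Ndrg1, a stress-responsive gene, fell by 2.79 (adjusted p = 2.8e-05), and the adhesion gene Icam1 fell by 0.64 (adjusted p = 0.0017).

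**Figure D3:**
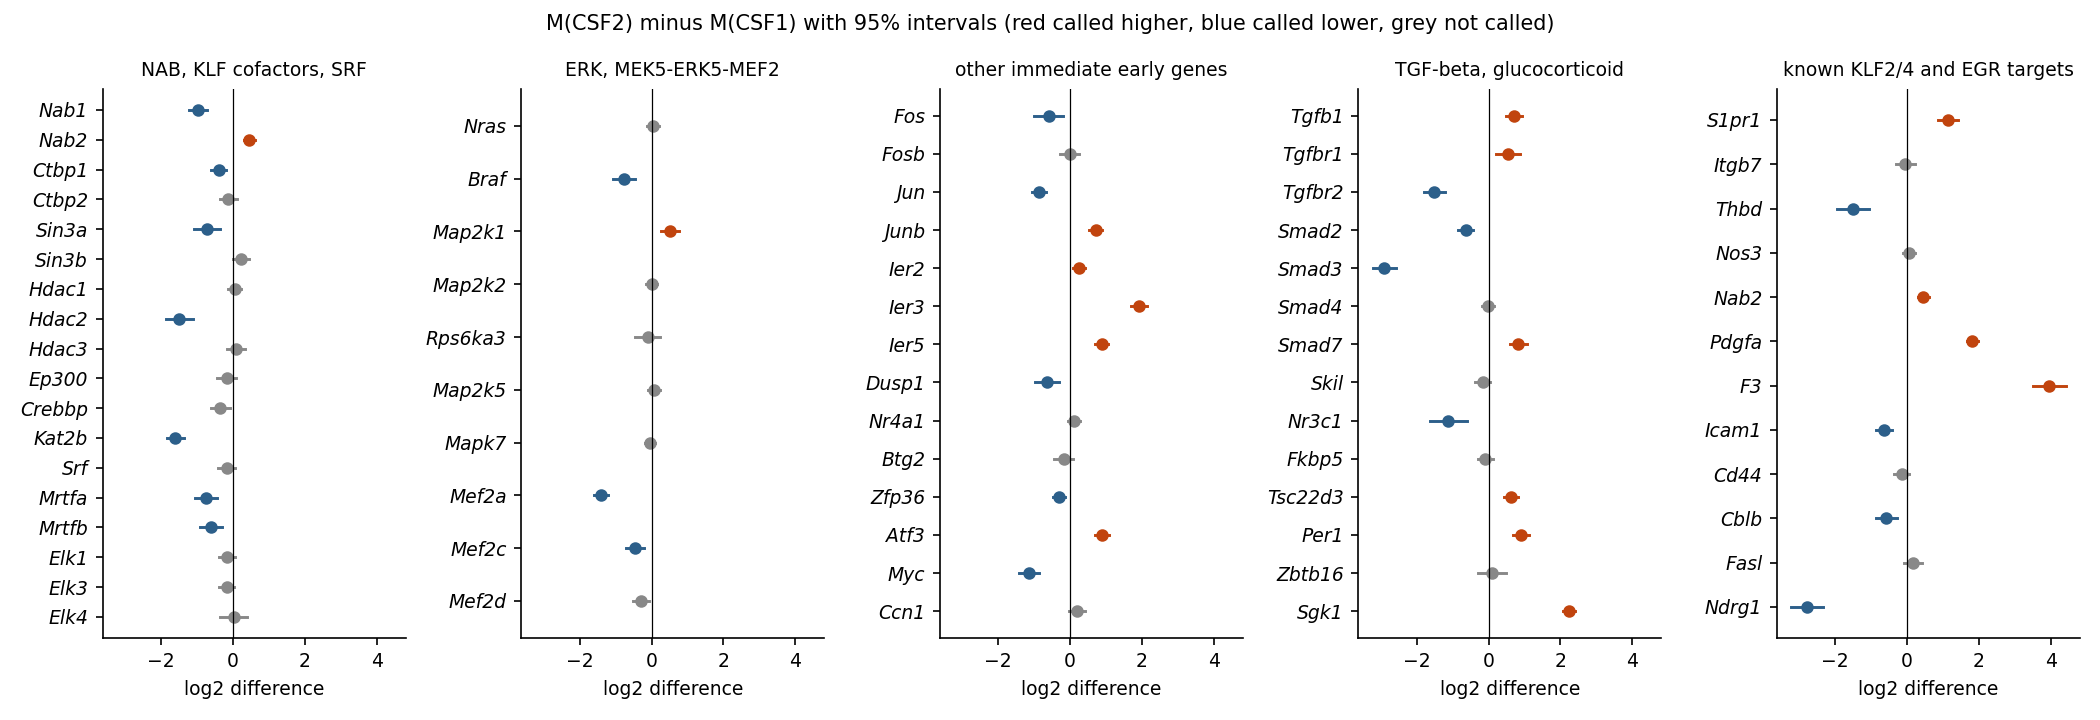
Log2 difference, M(CSF2) minus M(CSF1) (horizontal axis, with 95% intervals), for cofactors, upstream regulators, other immediate early genes, TGF-beta and glucocorticoid genes, and known targets. Red was called higher, blue called lower and grey not called. Most panels hold genes on both sides of 0, F3 at 3.96 being the farthest right and Smad3 at -2.90 the farthest left.

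Over the 92 genes measured in these 14 lists, 18 were higher and 26 lower, and the median difference was -0.03. Of all genes 11.9% were called higher and 15.6% lower, and the lists were chosen with earlier results of these data known. The genes whose profile over the 6 arrays was most like that of Egr2 were the coagulation factor F7, the integrin Itgax and the chemokine Cxcl16 (Pearson r of 0.9996, 0.9995 and 0.9995). They were higher in M(CSF2) by 3.70, 5.05 and 1.88. Those most like Klf3 were Nbeal1, Snrpa1 and Chd9 (r of 0.9995, 0.999 and 0.999), lower by 0.76, 0.99 and 1.01. With 2 separate groups of 3 arrays, r mostly reflects the group difference, and 357 genes reached an r over 0.99 with Egr2 and 205 with Klf3.

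The nearest measured protein-coding genes on either side of each of the 10 genes were looked up after the members' values had been seen. Of these 20 neighbours 10 were called, 1 higher and 9 lower. Over all genes 27.5% were called, 11.9% higher and 15.6% lower, and whether the neighbours depart from that was not tested. Next to Egr2, Ado (2.3 kb away) rose by 0.39 (adjusted p = 0.025) and Nrbf2 gave 0.04. Next to Klf9, Smc5 (38.3 kb away) fell by 1.01 (adjusted p = 0.00099) and Trpm3 gave 0.00, so neither neighbour of Klf9 rose with it. Next to Klf3, Tlr1 (91.8 kb away) fell by 3.01 (adjusted p = 1.5e-06) and Tbc1d1 (452 kb away) by 0.98 (adjusted p = 0.00039).

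Array medians ran from 3.91 to 4.00 on the log2 scale. Correlations over all probe sets were 0.995 to 0.997 within groups and 0.954 to 0.959 between them, and no array stood apart. All 8 macrophage markers were above the olfactory receptor level in at least 1 group, with Lyz2 at 11.95 in M(CSF2) and 12.43 in M(CSF1). Of these 8, 3 were called higher (Cd14 by 1.71, Cd68 by 0.89 and Csf1r by 0.60) and 3 lower (Fcgr1 at -1.23, Adgre1 at -1.18 and Lyz2 at -0.48), and in all 8 the groups did not overlap. For this and the marker counts below, 27.5% of all genes were called, 11.9% higher and 15.6% lower, and 38.9% did not overlap. Their summed signal, as log2, was 13.88 to 13.97 in M(CSF2) and 13.92 to 13.97 in M(CSF1). Dendritic cell markers were higher in 4 of 8 cases (Itgax by 5.05, Irf4 by 4.60, Ccr7 by 3.93 and Clec9a by 0.27), with a summed log2 signal of 11.23 to 11.54 in M(CSF2) and 7.12 to 7.36 in M(CSF1). Clec9a, Xcr1 and Dpp4 lay at or below the olfactory receptor level in both groups. Zbtb46 (4.10 in M(CSF2) and 3.84 in M(CSF1)) and Flt3 (3.42 in M(CSF2) and 3.50 in M(CSF1)) had means above it and were not called. Mast cell and basophil markers were higher in 4 of 8 cases (Hdc by 4.43, Gata2 by 2.52, Kit by 1.32 and Mcpt8 by 0.36), with sums of 8.96 to 9.19 in M(CSF2) and 6.31 to 6.64 in M(CSF1). Mcpt8 and the uncalled Cpa3, Mcpt4, Ms4a2 and Fcer1a lay at or below the olfactory receptor level in both groups. Neutrophil markers were higher in 2 of 9 (S100a8 by 2.37 and Ltf by 0.31), with sums of 8.37 to 9.08 in M(CSF2) and 7.25 to 7.41 in M(CSF1). S100a8 alone averaged 8.46 in M(CSF2) and 6.09 in M(CSF1). Ly6g, Ngp, Ltf and Retnlg lay at or below the olfactory receptor level in both groups. S100a9, lower in M(CSF2) at 4.21 against 4.55 in M(CSF1), was above that level and not called (adjusted p = 0.072). Camp, Mpo and Elane were not called either. Stromal markers were higher in 1 of 7 (Dcn), with sums of 7.92 to 8.30 in M(CSF2) and 7.16 to 7.25 in M(CSF1). Megakaryocyte markers were higher in 1 of 3 (Pf4) and lower in 1, with sums of 11.07 to 11.14 in M(CSF2) and 7.52 to 7.85 in M(CSF1). Endothelial markers were higher in 2 of 5 (Kdr by 3.53 and Cdh5 by 1.03) and lower in 1 (Pecam1 at -0.79), with sums of 8.25 to 8.58 in M(CSF2) and 6.74 to 7.03 in M(CSF1). Tek and Emcn lay at or below the olfactory receptor level in both groups. B cell markers were lower in 1 of 4 (Cd79b), with sums of 6.15 to 6.28 in M(CSF2) and 7.56 to 7.83 in M(CSF1). T and NK cell markers were lower in 1 of 7 (Cd4, at -0.87), with sums of 6.06 to 6.12 in M(CSF2) and 6.18 to 6.28 in M(CSF1). Cd3e, at 4.22 in M(CSF2) and 4.16 in M(CSF1), was not called. Of 4 erythroid markers 0 were called, Ermap standing at 4.56 in M(CSF2) and 4.54 in M(CSF1). The part of these cell types in the results was not tested.

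The 6 called genes kept their direction in all 15 alternative settings, and of them Egr1 alone lost its call in any. Egr2 ran from 3.45 to 3.76 and Klf9 from 2.34 to 2.54 over 15 settings, Klf3 from -1.83 to -1.58, Klf7 from -1.07 to -0.88 and Klf6 from -0.99 to -0.75.

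**Figure D4:**
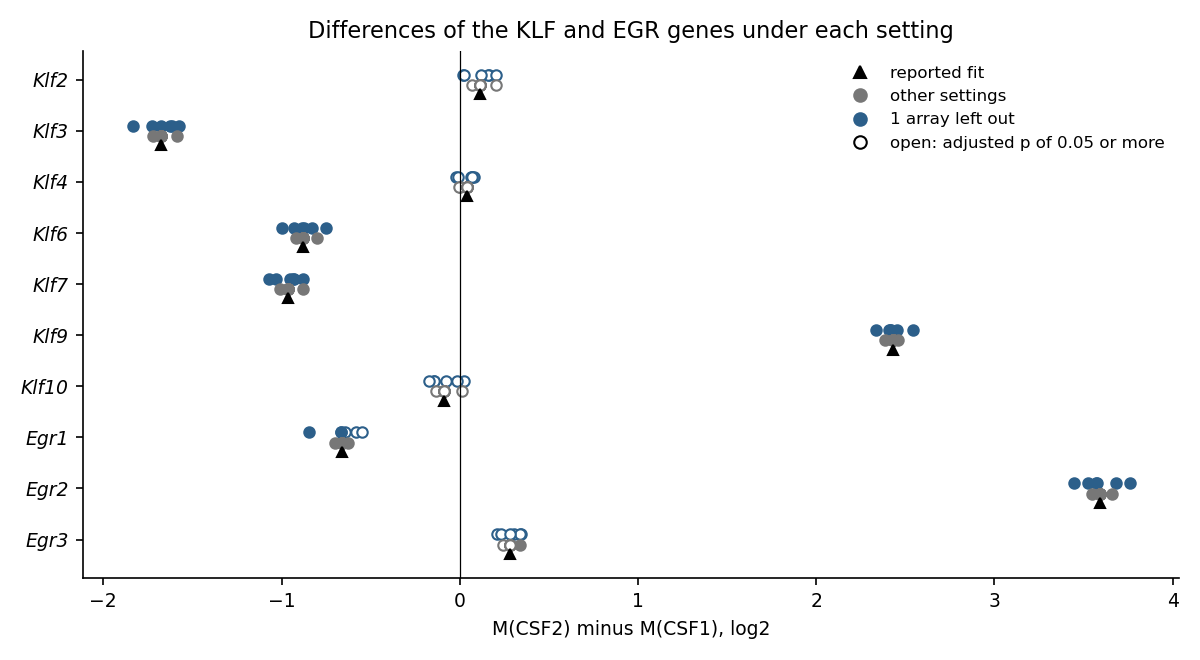
Log2 difference, M(CSF2) minus M(CSF1) (horizontal axis), of the 10 genes in the reported fit (triangles), under 9 other settings (grey) and with 1 of the 6 arrays left out (blue). Filled points were called and open points were not. Egr1 is filled in 2 of its 6 blue points, and Klf4 and Klf10 cross 0.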

How the data were processed

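Total RNA of 6 samples was hybridised to 1-colour Affymetrix Mouse Gene 1.0 ST arrays. The authors deposited 1 column of values per array, taken as log2 because values run from 1.48 to 13.27 and would exceed a scanner's range in base 10 or base e. The submitters' processing notes name MAS5 but not the steps it was used for or its settings. The table has no detection calls. The number of arrays limits the precision.

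Probe sets with 1 platform gene (21789 of 28941) were named, with symbols updated by Entrez identifier through RefSeq (GRCm38.p6, 21698 found). The brightest probe set stood for a gene. Differences are M(CSF2) minus M(CSF1), tested with limma 3.58.1 in R 4.3.3 (lmFit, eBayes, 2-sided) over 19938 genes with Benjamini-Hochberg adjustment at 0.05. The procedure was tested on simulated data. The olfactory receptor level, 3.36, is the 95th percentile of 1027 such genes. "At least" folds are against it.

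The 10 members and all lists were chosen with earlier results of these data known. Named genes were the members, the called gene with the largest difference in each direction of each list (up to 2 for NAB, other KLF, SP, immediate early, SRF, MEK5 to MEF2 and target lists), the brightest marker of each cell type, and the 3 genes most correlated with the largest called rise and fall. Neighbouring genes, the markers of each cell type beyond its brightest, Egr4, Wt1, Per1, Tsc22d3, Fkbp5 and Zbtb16 were added after their values were seen. Same-numbered replicates of the groups did not deviate together.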

Additional observations from a re-analysis of the deposited data

How the results depend on the processing

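The count of genes called ran from 4254 to 6096 over 15 alternatives, and that of the 10 KLF and EGR genes from 5 to 7. Egr3 passed the threshold after quantile normalization (0.34, adjusted p = 0.037) and without genes below the median gene (0.28, adjusted p = 0.044), the second by testing fewer genes. Klf10 changed sign after quantile normalization (0.012), and Klf4 after centring on array medians (-0.0027), neither being called. The cause of the changes under quantile normalization and centring was not tested. With 1 array left out, Klf10 ran from -0.17 to 0.023, Klf4 from -0.022 to 0.082 and Egr1 from -0.85 to -0.55. Klf4 has no value without genes below the median gene, since it is one of them. Same-numbered replicates did not deviate together (correlation of deviations -0.25 to 0.0039 over 3 pairs). With the replicate block 5072 genes and 6 of the 10 were called, and no call among the 10 changed. Among counts of called genes in the lists, 684 of 720 stayed within 1.5 times. The table has no detection calls, so whether dim genes such as Klf4 stood above background on any array is not known.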

Other observations

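Some deposited values were identical on arrays of the same group. Of the 10 KLF and EGR genes this held for 2, Klf4 (M(CSF1) replicates 1 and 3) and Klf10 (M(CSF2) replicates 1 and 3), and of all genes tested for 4690 (23.5%). For 17 genes all 6 arrays had the same value. Such ties lower the measured spread of a group, and their part in the tests was not tested. Klf4 and Klf10 were not called.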
